A study of Mus musculus with 9 samples.

Results

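Transcripts of 10 genes that encode DNA methylation and Polycomb enzymes or their core partners were followed from naive B cells through antigen-specific activated B cells to plasma cells (PCs). The genes were chosen by name, though with earlier results of these data known. They are Ezh2, Ezh1, Eed and Suz12 of Polycomb repressive complex 2 (PRC2), the DNA methyltransferases Dnmt1, Dnmt3a and Dnmt3b with the Dnmt1 partner Uhrf1, and the methylcytosine oxidases Tet2 and Tet3. All 10 are among the 29995 genes of the deposited table without immunoglobulin (Ig) genes, and all 10 passed the filter on low values that left 12892 genes for testing. The cells came from spleens of B6.Blimp1+/GFP mice aged 12 weeks, in which green fluorescent protein (GFP) reports Prdm1, the gene for Blimp1. Every group, the naive cells included, came from animals given 50 µg NP-LPS intraperitoneally 4 days earlier, the hapten NP coupled to bacterial lipopolysaccharide. Naive B cells (naive cells) were sorted as IgD high, B220 positive and NP negative. NP-specific B cells (NP+ B cells) bound NP, had lost IgD, were B220 positive and carried neither GFP nor CD138. PCs bound NP, had lost IgD and were positive for both GFP and CD138, with or without B220. T cells, erythroid cells and F4-80 positive cells were gated out. Each group had 3 libraries, which the labels give as biological replicates, and both NP-binding groups were sorted from the same 3 individuals as the study describes it, without saying which libraries came from 1 mouse. The groups thus differ in antigen binding and activation as well as in stage, and no uninjected animals were analysed here.

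PRC2 places a repressive methyl mark on histone H3. Ezh2 and Ezh1 are its alternative catalytic subunits, Eed binds the mark and is needed for activity, and Suz12 holds the complex together. Ezh2 is known from dividing lymphocytes and germinal center B cells, and Ezh1 from resting cells. Dnmt1 copies DNA methylation onto the new strand at replication, and Uhrf1 recognizes hemimethylated DNA and recruits Dnmt1. Dnmt3a and Dnmt3b methylate unmethylated DNA, and Tet2 and Tet3 oxidize methylcytosine, the first step of its removal.

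The genes lie on 8 chromosomes of GRCm38, the build that mm10 names. Ezh2 spans chr6:47530139-47595341 on the minus strand and Ezh1 chr11:101191115-101226463 on the minus strand. Suz12 spans chr11:79993106-80034123 on the plus strand and Dnmt1 chr9:20907209-20959888 on the minus strand. Uhrf1 spans chr17:56303321-56323486 and Dnmt3a chr12:3806007-3914443, both on the plus strand. Eed spans chr7:89954654-89980983 on the minus strand and Dnmt3b chr2:153649450-153687730 on the plus strand. Tet2 (chr3:133463679-133545139) and Tet3 (chr6:83362373-83459084) lie on the minus strand. The windows of 250 bases before to 50 bases after the RefSeq start sites (GRCm38.p6) were searched on both strands for 4 words of the kind bound by E2F factors, regulators of replication genes: TTTCCCGC, TTTGGCGC, TTTCGCGC and TTTGCCGC. A word was found in 4 of the 10 genes, in 1 window each of 15 windows in all. Of all 32851 windows, 744 (2.26%) held a word, and of 8857 tested genes with a window 409 (4.62%) did. The 4 windows with a word, of Ezh2, Suz12, Dnmt1 and Uhrf1, are printed with those of Eed and Ezh1, which hold none. Of these genes all but Ezh1 were at their highest in NP+ B cells, so that Eed shared this order without a word in its window. Sequences run 5′ to 3′ on the gene's strand, capitals mark the words, and positions count from 1 at the start site.
Ezh2, chr6:47594981-47595280, minus strand, word at 4 to 11: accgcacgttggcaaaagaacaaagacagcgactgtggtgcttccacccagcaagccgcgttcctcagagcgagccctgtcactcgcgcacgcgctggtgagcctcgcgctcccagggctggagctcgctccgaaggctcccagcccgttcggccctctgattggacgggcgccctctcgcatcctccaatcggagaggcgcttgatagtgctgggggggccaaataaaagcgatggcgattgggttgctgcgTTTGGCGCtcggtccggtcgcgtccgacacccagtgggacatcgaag
Suz12, chr11:79992856-79993155, plus strand, word at -219 to -212: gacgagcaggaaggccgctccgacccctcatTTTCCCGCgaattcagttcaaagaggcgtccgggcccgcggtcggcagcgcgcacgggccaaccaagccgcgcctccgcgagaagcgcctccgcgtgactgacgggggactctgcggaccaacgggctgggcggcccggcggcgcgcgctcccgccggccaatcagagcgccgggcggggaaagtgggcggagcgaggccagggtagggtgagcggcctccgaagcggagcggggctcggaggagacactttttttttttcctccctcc
Dnmt1, chr9:20952574-20952873, minus strand, words at -219 to -212 (the reverse complement of TTTCGCGC) and at 34 to 41: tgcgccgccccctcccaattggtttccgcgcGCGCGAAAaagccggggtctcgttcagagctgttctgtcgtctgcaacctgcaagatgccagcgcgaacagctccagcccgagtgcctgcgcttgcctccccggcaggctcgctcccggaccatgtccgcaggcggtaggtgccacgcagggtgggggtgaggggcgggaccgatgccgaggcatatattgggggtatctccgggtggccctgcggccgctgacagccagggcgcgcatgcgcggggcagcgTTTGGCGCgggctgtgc
Uhrf1, chr17:56304063-56304362, plus strand, word at -185 to -178: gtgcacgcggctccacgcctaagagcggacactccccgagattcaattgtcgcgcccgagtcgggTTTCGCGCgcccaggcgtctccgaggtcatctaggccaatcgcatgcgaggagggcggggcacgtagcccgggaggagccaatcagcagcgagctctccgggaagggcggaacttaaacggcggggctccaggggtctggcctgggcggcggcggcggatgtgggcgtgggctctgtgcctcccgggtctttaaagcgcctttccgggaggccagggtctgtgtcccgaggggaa
Eed, chr7:89980927-89981226, minus strand, no word: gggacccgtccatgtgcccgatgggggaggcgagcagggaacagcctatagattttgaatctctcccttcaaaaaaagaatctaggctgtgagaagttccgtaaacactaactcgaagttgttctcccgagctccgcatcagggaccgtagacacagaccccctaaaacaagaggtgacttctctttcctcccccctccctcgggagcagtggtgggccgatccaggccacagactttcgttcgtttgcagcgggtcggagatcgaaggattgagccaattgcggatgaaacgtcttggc
Ezh1, chr11:101226414-101226713, minus strand, no word: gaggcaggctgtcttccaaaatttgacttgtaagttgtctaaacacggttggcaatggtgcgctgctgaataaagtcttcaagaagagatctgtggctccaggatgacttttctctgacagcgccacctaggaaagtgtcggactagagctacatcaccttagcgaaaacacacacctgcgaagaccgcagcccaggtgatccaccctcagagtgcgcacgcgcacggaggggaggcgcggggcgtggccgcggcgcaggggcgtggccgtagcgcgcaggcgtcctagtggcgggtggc
These matches describe letters and show no binding. Dnmt1 has 2 further windows and Uhrf1 1 further window without a word.

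Levels are given as TPM, a relative abundance corrected for transcript length. The labels describe capture at the polyA end of RNA, and reads gathered there would shift levels between genes, so shares and ratios of different genes are read by their change between groups. Without Ig genes the libraries held 28490300 to 31719400 estimated reads in naive cells, 34918400 to 38602300 in NP+ B cells and 20189900 to 22137400 in PCs. Reads of Ig genes are not in these numbers, which therefore do not give the total depth. From 115.9 to 11730.1 estimated reads lay behind each value of the 10 genes, the lowest being Dnmt3b in PC replicate 3. The sort was visible in most of the markers. Prdm1 was at 1.97 to 3.24 TPM in naive cells, 3.09 to 7.24 in NP+ B cells and 78.4 to 116.3 in PCs, Sdc1 (CD138) was at 254.6 to 322.4 in PCs against at most 8.48 elsewhere, and Ighd in the full table was at 2800.5 to 2904.4 in naive cells and at most 42.5 elsewhere. Of the 5 tested PC markers 1 was called higher and 2 lower in NP+ B cells than in naive cells, and all 5 higher in PCs. These counts include Tnfrsf17 against naive cells and Sdc1 in comparisons with NP+ B cells. There, both passed the filter on low values only through the groups where they were high, so no test of either is given. Irf4, a regulator of PCs, was at 22.8 to 28.5 TPM in naive cells, 7.12 to 14.0 in NP+ B cells and 88.8 to 133.8 in PCs, and Sdc1 was at 4.33 to 8.48 in naive cells and 0.0930 to 1.48 in NP+ B cells. Tnfrsf17, the receptor BCMA, was at 0.0620 to 0.512 TPM in naive cells, 5.21 to 18.6 in NP+ B cells and 672.4 to 802.1 in PCs, and Igj, the joining chain, in the full table at 1.61 to 4.96, 273.2 to 465.1 and 14195 to 16488. T cell markers summed to at most 7.42 TPM in any library. Trac, a T cell receptor gene, was listed at 0 in all, but whether the annotation used covered it is not known. The 6 liver markers summed to 4613 TPM in PC replicate 3 and to at most 26.5 in the other 8 libraries, and the 9 myeloid markers summed to 10.01 to 12.1 TPM in naive cells, 64.8 to 103.1 in NP+ B cells and 36.6 to 119.4 in PCs. Cd68 was the highest of these in each NP+ B cell library (45.0 to 67.6 TPM, against 3.88 to 4.05 in naive cells and 28.8 to 35.6 in PCs), while Emr1, which encodes F4/80, was at 2.93 to 4.23, 1.33 to 3.68 and 0.161 to 0.559 in naive cells, NP+ B cells and PCs. S100a8 was high in NP+ B cell replicate 2 (24.7) and PC replicate 3 (18.7), and Lyz2 in PC replicate 3 (48.2). Their part in the results was not tested. Of the 10 genes 6, 4 and 6 were called in the 3 comparisons (below in that order), also without PC replicate 3, and 7, 4 and 6 without NP+ B cell replicate 2. With all 9 libraries 18.5%, 37.8% and 32.2% of all tested genes were called. In such bulk samples, fewer cells of a type and less RNA per cell cannot be told apart.

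The catalytic subunits of PRC2 changed in opposite directions between naive and NP+ B cells. Ezh2 was at 18.4, 17.5 and 26.1 TPM in naive cells, 77.2, 70.2 and 65.6 in NP+ B cells and 30.1, 33.9 and 28.6 in PCs. The groups did not overlap, and all PC libraries lay between both B cell groups, an order that holds only without Ig genes. In the full table Ezh2 was at 8.60 to 9.44 TPM in PCs and 16.4 to 24.5 in naive cells. Ezh1 was at 53.7, 46.5 and 53.0 TPM in naive cells, 28.7, 25.2 and 19.7 in NP+ B cells and 16.4, 19.01 and 16.5 in PCs. The order of Ezh1 was thus naive cells, NP+ B cells and PCs, with a gap of less than 1 TPM between the lowest NP+ B cell library and the highest PC library. Of the summed TPM of both genes, Ezh2 took 28.6% ± 3.94 (SD, n = 3) in naive cells, 74.4% ± 2.14 in NP+ B cells and 64.1% ± 0.672 in PCs. This share does not depend on how libraries are scaled to each other. Its groups did not overlap in any of the 3 comparisons, and the two-sided exact permutation test gave p = 0.1 in each, the smallest that 3 libraries against 3 allow.

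Both partners needed for PRC2 activity were high in NP+ B cells, but they parted in PCs. Eed was at 33.4, 31.1 and 35.4 TPM in naive cells, 100.8, 56.2 and 97.1 in NP+ B cells and 7.48, 9.76 and 9.31 in PCs. The 3 groups did not overlap, and PCs had the lowest values. Suz12 was at 7.16, 7.46 and 9.34 TPM in naive cells, 20.6, 11.9 and 21.8 in NP+ B cells and 11.3, 8.43 and 13.8 in PCs. PC values of Suz12 overlapped with both other groups, though in the full table they (2.34 to 4.14 TPM) lay below naive cells (6.70 to 8.75). NP+ B cell replicate 2 was the lowest of its group for both Eed and Suz12, though not for Ezh2. Set against Ezh2 in the same library, Eed reached 1.35 to 1.82 times its TPM in naive cells, 0.800 to 1.48 times in NP+ B cells and 0.248 to 0.325 times in PCs. For Suz12 the same ratio ranged from 0.357 to 0.426, from 0.169 to 0.333 and from 0.248 to 0.482. The 3 core transcripts thus did not keep 1 proportion: Eed per Ezh2 was lower in every PC library than in any other library, while Suz12 per Ezh2 overlapped between PCs and both other groups. These ratios were chosen after the values were seen and were not tested.

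The maintenance methyltransferase and its partner were also highest in NP+ B cells. Dnmt1 was at 26.4, 25.8 and 27.7 TPM in naive cells, 69.2, 45.9 and 45.7 in NP+ B cells and 16.1, 21.2 and 12.5 in PCs. Uhrf1 was at 10.9, 11.3 and 14.6 TPM in naive cells, 78.9, 61.1 and 59.0 in NP+ B cells and 18.998, 18.8 and 14.0 in PCs. Dnmt1 had 3 groups without overlap, with PCs below naive cells, while Uhrf1 in PCs overlapped with naive cells. Replicate 1 was the highest NP+ B cell library for both genes. The TPM of Uhrf1 relative to Dnmt1 was 0.414 to 0.527 in naive cells, 1.14 to 1.33 in NP+ B cells and 0.885 to 1.18 in PCs, again a ratio chosen after the values were seen.

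The de novo methyltransferases did not share this pattern. Dnmt3a was at 22.9, 19.9 and 23.7 TPM in naive cells, 26.2, 29.1 and 15.2 in NP+ B cells and 5.44, 7.33 and 9.29 in PCs. Its B cell groups overlapped, and every PC library lay below them. Dnmt3b, the lowest of the 3 methyltransferases in every library, was at 4.92, 5.41 and 6.39 TPM in naive cells, 3.01, 2.95 and 4.61 in NP+ B cells and 3.28, 2.79 and 2.02 in PCs. Naive B cells had the highest Dnmt3b values, and the other groups overlapped. In the full table the latter did not overlap (2.65 to 4.17 TPM in NP+ B cells and 0.606 to 0.977 in PCs).

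Of the oxidases, Tet3 fell stepwise and Tet2, in the table without Ig genes, stayed within a narrow range. Tet3 was at 21.4, 22.0 and 24.1 TPM in naive cells, 6.37, 14.2 and 8.75 in NP+ B cells and 4.04, 3.30 and 1.60 in PCs, without overlap. For Tet2 the values were 5.48, 4.90 and 5.73 TPM in naive cells, 5.59, 5.21 and 4.12 in NP+ B cells and 5.09, 5.12 and 4.99 in PCs. The Tet2 groups overlapped, and the 9 libraries lay between 4.12 and 5.73 TPM. In the full table Tet2 was at 4.58 to 5.37 TPM in naive cells, 3.72 to 4.94 in NP+ B cells and 1.42 to 1.52 in PCs. Tet2 accordingly took 19.3% ± 1.10 of the summed TPM of both genes in naive cells, 35.2% ± 10.3 in NP+ B cells and 64.1% ± 10.4 in PCs (SD, n = 3). The exact permutation p was 0.1 in each comparison, the smallest possible, and in the third it was 0.2 without PC replicate 3.

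**Figure D1:**
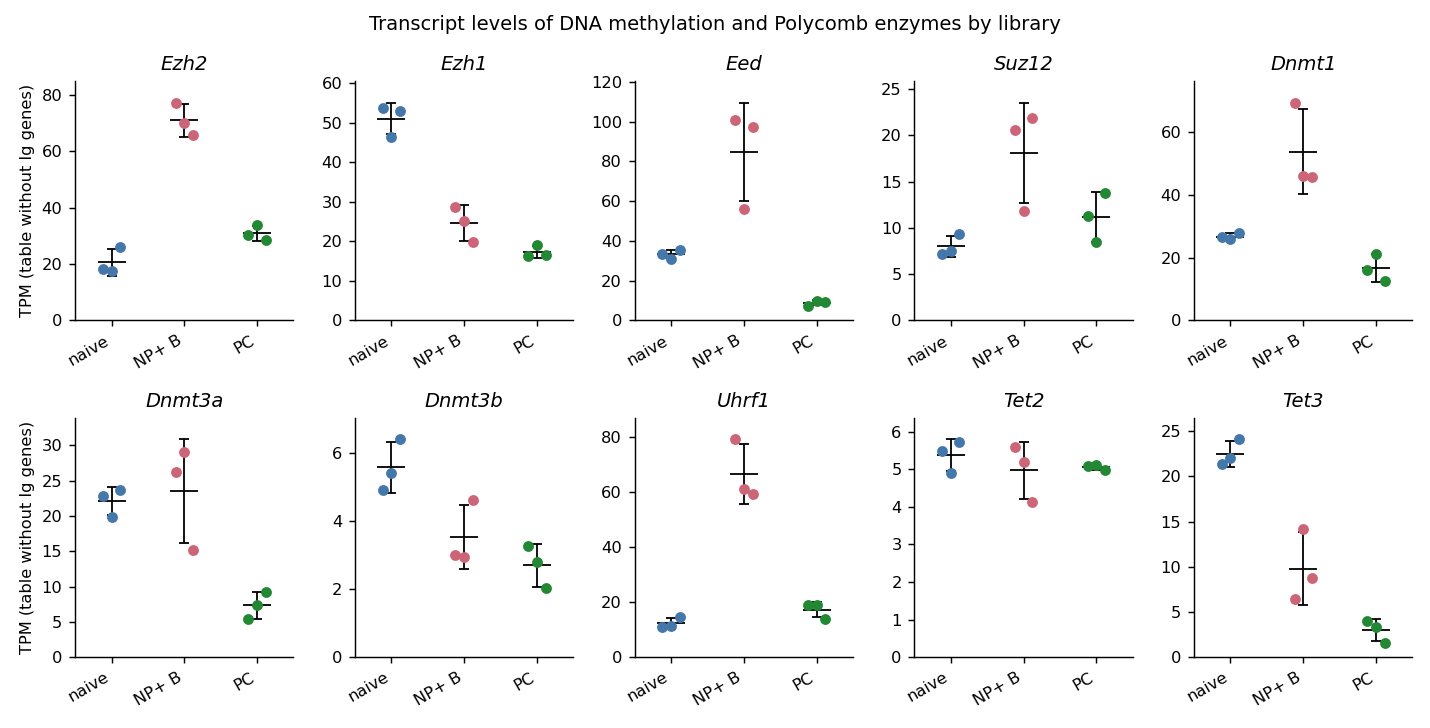
TPM of each of the 10 genes in the 9 libraries, from the table without Ig genes, 1 panel a gene with its own linear axis from 0. Points are libraries, horizontal bars group means and whiskers SD (n = 3). Ezh2, Eed, Suz12, Dnmt1 and Uhrf1 are highest in NP+ B cells, Ezh1, Dnmt3b and Tet3 in naive cells, and Tet2 lies between 4.12 and 5.73 TPM throughout.

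**Figure D2:**
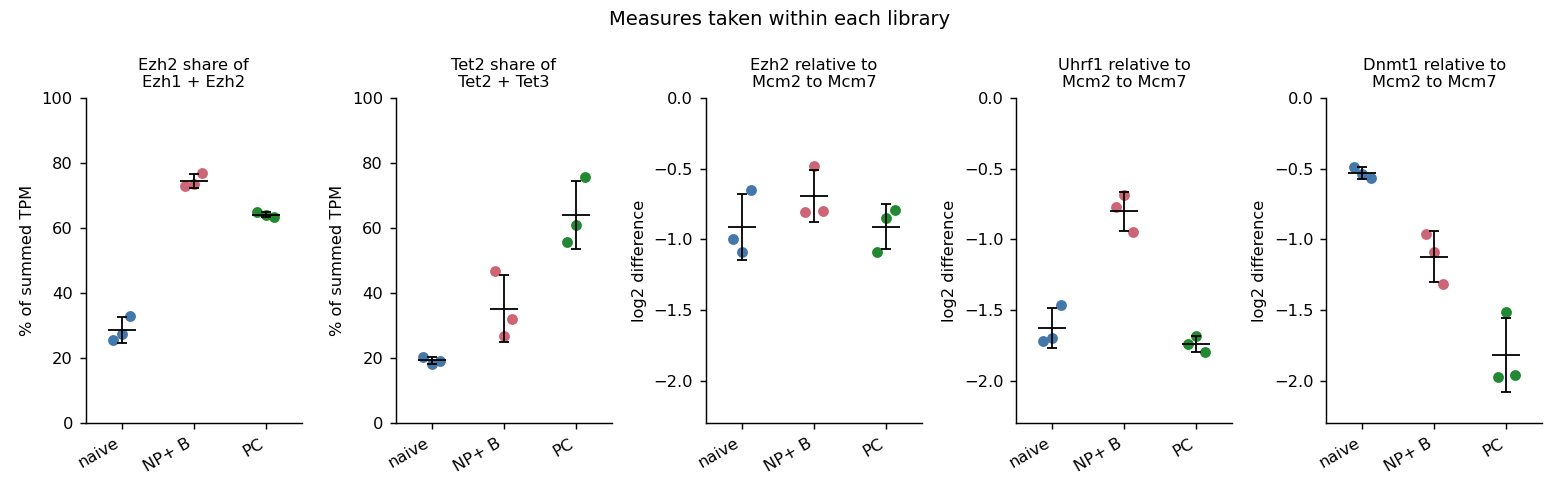
Measures taken within each library, with libraries as points, means as bars and SD as whiskers (n = 3). The 2 panels on the left give the share in % of summed TPM, and the others the log2 difference from the mean of Mcm2 to Mcm7; the Ezh2 share is 28.6%, 74.4% and 64.1% on average, and Dnmt1 falls from -0.53 over -1.12 to -1.82.

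Naive and NP+ B cells were compared to ask what antigen-driven activation without PC differentiation goes along with. A gene was counted as different (called) with a Benjamini-Hochberg adjusted p-value under 0.05 from limma and a fold change over 2. Among the 10 genes 4 rose and 2 fell, against 18.5% of all 12892 tested genes called, 8.13% higher and 10.4% lower. Uhrf1 rose most, by 2.38 ± 0.19 on the log2 scale (SE, limma adjusted p = 7.7e-06), followed by Ezh2 with 1.77 ± 0.16 (adjusted p = 1.5e-05). Eed rose by 1.28 ± 0.21 (limma adjusted p = 0.000967) and Suz12 by 1.08 ± 0.27 (adjusted p = 0.00883). Tet3 fell by 1.24 ± 0.26 (limma adjusted p = 0.00368) and Ezh1 fell by 1.06 ± 0.15 (adjusted p = 0.000298). Dnmt1 lay 0.96 ± 0.20 higher, just under the 2-fold limit (limma adjusted p = 0.00345), with no overlap between groups. The difference was 0.03 ± 0.23 for Dnmt3a (limma adjusted p = 0.939), -0.12 ± 0.19 for Tet2 (adjusted p = 0.650) and -0.62 ± 0.24 for Dnmt3b (adjusted p = 0.0597). The median log2 change of the 10 genes was 0.49, that of all tested genes -0.16. Of the 10 genes 8 did not overlap between the groups, against 55.9% of all tested genes.

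The smaller of these differences stood close to the 2-fold limit. The call was lost for Suz12 without NP+ B cell replicate 1 (0.97) or 3 (0.93), for Tet3 without replicate 1 (-0.99), and for Ezh1 without replicate 3 (-0.91) or with median-of-ratios scaling (-0.95). Dnmt1 passed it with that scaling (1.07), with the deposited log2 values (1.01), with estimated counts (1.01) and without NP+ B cell replicate 2 (1.05) or 3 (1.06).

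PCs were compared with naive cells to ask how far their transcripts differ from those of IgD high, NP negative B cells of injected animals. Here none of the 10 genes was called higher and 4 were called lower, against 37.8% of tested genes called, 11.4% higher and 26.3% lower. Tet3 fell by 2.80 ± 0.33 on the log2 scale (SE, limma adjusted p = 2.6e-05), Eed fell by 1.87 ± 0.29 (adjusted p = 0.000237), Dnmt3a fell by 1.56 ± 0.28 (adjusted p = 0.000654) and Ezh1 fell by 1.54 ± 0.16 (adjusted p = 9.6e-06). Dnmt3b (-0.95 ± 0.25, limma adjusted p = 0.00734) and Dnmt1 (-0.70 ± 0.23, adjusted p = 0.0218) were lower by less than 2-fold. Dnmt3b passed the limit with an offset of 0.1 (-1.04) and without naive replicate 1 (-1.02) or PC replicate 1 (-1.08). Ezh2 lay 0.58 ± 0.17 higher (limma adjusted p = 0.0119), and the values for Uhrf1 (0.47 ± 0.21, adjusted p = 0.0790), Suz12 (0.44 ± 0.29, adjusted p = 0.208) and Tet2 (-0.08 ± 0.19, adjusted p = 0.735) did not pass. The count of 0 higher genes rests on the fold limit for Ezh2 and became 1 with median-of-ratios scaling (Ezh2, 1.07) and 3 with quantile normalization (Ezh2 1.05, Suz12 1.01, Uhrf1 1.01). With Ig genes kept these 3 turned (Ezh2 -0.59, Suz12 -0.65, Uhrf1 -0.66), and 0 of the 10 genes were called higher and 7 lower. Of all 12324 genes tested in that setting, 551 were called higher and 7943 lower. At an unadjusted p under 0.05 in the main fit, Ezh2 alone of the 10 was higher. Groups of 7 of the 10 genes did not overlap, against 69.7% of tested genes. Dnmt1 in this comparison was -0.52 without PC replicate 3 (limma adjusted p = 0.0827).

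NP+ B cells and PCs, which share antigen specificity and lack of IgD, differed in 6 of the 10 genes, all lower in PCs, against 32.2% of tested genes called and 22.3% called lower (9.93% higher). Eed had the largest difference and fell by 3.15 ± 0.27 on the log2 scale (SE, limma adjusted p = 3.6e-06), and its group mean in PCs was 0.105 of that in NP+ B cells. Uhrf1 fell by 1.91 ± 0.18 (limma adjusted p = 5.5e-06), Dnmt1 fell by 1.66 ± 0.22 (adjusted p = 7.4e-05) and Dnmt3a fell by 1.59 ± 0.28 (adjusted p = 0.000651). Tet3 fell by 1.56 ± 0.35 (limma adjusted p = 0.00311) and Ezh2 fell by 1.19 ± 0.15 (adjusted p = 5.0e-05). Ezh1 was lower by less than 2-fold (-0.48 ± 0.17, limma adjusted p = 0.0340). Suz12 (-0.65 ± 0.26, adjusted p = 0.0529), Dnmt3b (-0.33 ± 0.27, adjusted p = 0.330) and Tet2 (0.04 ± 0.20, adjusted p = 0.892) did not pass in limma. None of the 10 was called higher, and at an unadjusted p under 0.05 none was higher either. With median-of-ratios scaling (-0.80) or quantile normalization (-0.75) Ezh2 was under the fold limit. Groups of 7 of the 10 genes did not overlap, against 58.2% of tested genes. The 3 comparisons share their libraries pairwise and are not independent of each other.

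**Figure D3:**
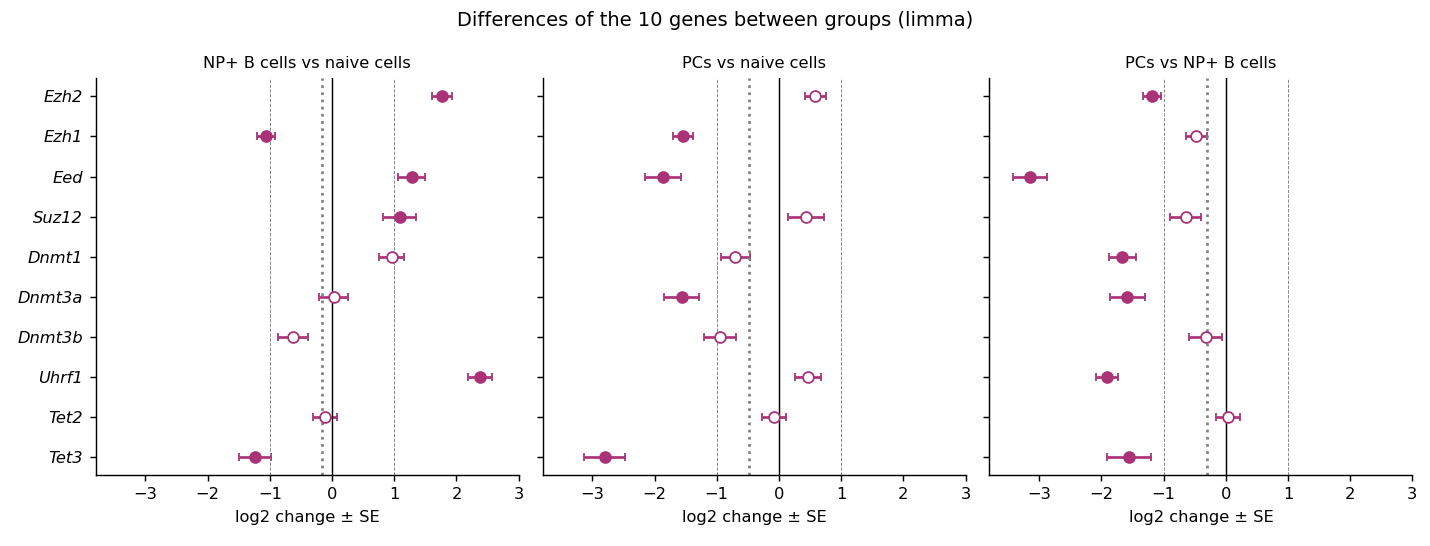
Log2 change of the 10 genes in the 3 comparisons with its SE (limma, 9 libraries). Filled points were called (adjusted p under 0.05 and more than 2-fold), dashed lines mark 2-fold, and the dotted line is the median of all tested genes (-0.16, -0.47 and -0.30). Called points lie on both sides of 0 on the left, and to the left of 0 only in both PC panels.

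Size and sign of small differences in PCs depended on the scaling between libraries. Median-of-ratios scaling moved the median log2 change of all genes by 0.11, 0.49 and 0.38 in the 3 comparisons in the order above, quantile normalization by 0.08, 0.40 and 0.30, and keeping the Ig genes in the table by 0.0027, -0.93 and -0.97. The calls higher and lower went from 1048 and 1340 to 1258 and 1022 (median-of-ratios) or 1157 and 976 (quantile) between the B cell groups. From naive cells to PCs they went from 1473 and 3397 to 2349 and 1814 or 2063 and 2047, and to 551 and 7943 with Ig genes. From NP+ B cells to PCs they went from 1280 and 2870 to 2023 and 1788 or 1795 and 1843, and to 420 and 7355. With Ig genes kept 12324 genes were tested, and with the other scalings 12892. The changes were therefore also taken relative to the median of all genes under each of these 4 scalings. From naive cells to PCs, Ezh2 then stood 0.82 to 1.13 above that median, Suz12 0.76 to 1.08, Uhrf1 0.74 to 1.08 and Tet2 0.37 to 0.56 above it, although with Ig genes kept the unadjusted values of Ezh2, Suz12 and Uhrf1 were below 0. Dnmt1 stood at -0.42 to -0.13, Dnmt3b at -0.47 to -0.30, Ezh1 at -1.27 to -1.06, Dnmt3a at -1.17 to -0.94, Eed at -1.51 to -1.28 and Tet3 at -2.33 to -2.16. From NP+ B cells to PCs, Eed stood at -2.91 to -2.63, Uhrf1 at -1.75 to -1.42, Dnmt1 at -1.49 to -1.19 and Ezh2 at -1.07 to -0.75.

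Markers of dividing cells moved with several of these genes, and their part in the results was not tested. Summed TPM of the 12 proliferation markers was 202.0 to 235.3 in naive cells, 1683 to 2259 in NP+ B cells and 1369 to 1745 in PCs. All 12 were called higher in NP+ B cells than in naive cells and 11 of 12 in PCs than in naive cells. Between NP+ B cells and PCs 1 of 12 was called, Ccnb2, a mitotic cyclin, which fell by 1.05. This call was lost under 6 alternatives, among them median-of-ratios scaling (-0.66), quantile normalization (-0.79) and leaving out NP+ B cell replicate 1 (-0.87) or PC replicate 3 (-0.87). With Ig genes kept 11 of the 12 were called lower in PCs than in NP+ B cells, as were 7355 of all 12324 genes tested in that setting. Mki67, the Ki-67 gene, was at 1.58 to 3.07 TPM in naive cells, 47.0 to 51.9 in NP+ B cells and 52.5 to 73.5 in PCs. Cdk1, the mitotic kinase, differed by 0.03 between NP+ B cells and PCs (limma adjusted p = 0.895), and Rrm2, a ribonucleotide reductase subunit, by 0.08 (adjusted p = 0.716). At an unadjusted p under 0.05, 8 of the 12 were lower and 1 higher in PCs, all but Ccnb2 by less than 2-fold. Uhrf1 and Dnmt1 were called lower there, with log2 changes of -1.91 and -1.66 beside the markers' median of -0.40.

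The genes Mcm2 to Mcm7, which license DNA for replication, gave a closer reference. All 6 were called higher in NP+ B cells than in naive cells, by up to 1.98 for Mcm6. Mcm6 (1.65) was called higher in PCs than in naive cells, 4 of the 6 were with median-of-ratios scaling and 2 with quantile normalization, and Mcm4 (-1.41), Mcm3 (-1.29) and Mcm7 (-1.07) were called lower in PCs than in NP+ B cells. With Ig genes kept Mcm6 was at 0.43 and not called, 2 of the 6 were called lower in PCs against naive cells and all 6 against NP+ B cells. Of all 12324 genes tested in that setting, 7943 and 7355 were called lower in these comparisons. Median-of-ratios scaling and quantile normalization took Mcm3 (-0.90 and -0.94) and Mcm7 (-0.68 and -0.72) under the limit, as did leaving out NP+ B cell replicate 1 (-0.93) or PC replicate 3 (-0.99) for Mcm7. Ezh2 lay -0.91 ± 0.23, -0.70 ± 0.18 and -0.91 ± 0.16 from the mean log2 level of these 6 genes in naive cells, NP+ B cells and PCs (SD, n = 3). Two-sided exact permutation p-values for Ezh2 were 0.3, 1.0 and 0.3 in the 3 comparisons, and its groups overlapped. Uhrf1 stood at -1.63 ± 0.14, -0.80 ± 0.14 and -1.74 ± 0.06, with exact permutation p-values of 0.1, 0.3 and 0.1. Dnmt1 stood at -0.53 ± 0.04, -1.12 ± 0.18 and -1.82 ± 0.26, without overlap between any groups (exact permutation p = 0.1 in each). Measured this way, Uhrf1 was above the licensing genes' pattern in NP+ B cells. Dnmt1 was lower in NP+ B cells, where its own TPM was highest, and lower again in PCs. Ezh2 differed by 0.22, 0.0012 and -0.21 in the 3 comparisons. With 3 libraries a group the smallest possible p is 0.1, so the test cannot show that Ezh2 followed the licensing genes.

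Of all tested genes 8.13%, 11.4% and 9.93% were called higher and 10.4%, 26.3% and 22.3% lower in the 3 comparisons in the order above. The main counts of each list below stand beside these shares, and counts under other scalings beside those of their own setting. Called lower in PCs against naive and NP+ B cells were 1814 and 1788 of 12892 genes with median-of-ratios scaling. With quantile normalization they were 2047 and 1843, and with Ig genes kept 7943 and 7355 of 12324. Called higher were 2349 and 2023, 2063 and 1795, and 551 and 420 in the same order of settings. Accessory subunits of PRC2 showed 2 called higher and 1 lower of 8 in NP-specific against naive cells, 0 and 3 in PCs against naive cells, and 0 and 5 in PCs against NP+ B cells. The lower counts in PCs were 2 and 3 with median-of-ratios scaling, 2 and 4 with quantile normalization, and 7 and 7 with Ig genes kept. At an unadjusted p under 0.05, still none was higher in PCs in either comparison. Median changes were 0.37, -0.71 and -1.22, beside -0.16, -0.47 and -0.30 for all genes. Phf19, a Polycomb-like protein, was at 1.93 to 2.97 TPM in naive cells, 15.6 to 22.9 in NP+ B cells and 2.48 to 2.77 in PCs, with log2 changes of 2.63 and then -2.59 (limma adjusted p = 4.8e-06 for the latter). Phf1, a related Polycomb-like protein, went the other way, from 43.4 to 46.4 TPM in naive cells to 5.98 to 8.57 in NP+ B cells and 3.59 to 6.39 in PCs (-2.57 and -3.09 against naive cells). Rbbp7, a histone-binding subunit, rose by 1.12 in NP+ B cells, and by 0.96 with quantile normalization, under the limit. Aebp2, a DNA-binding accessory subunit, fell in PCs against both naive cells (log2 change of -1.11) and NP+ B cells (-1.63). The first of these calls was lost under 5 alternatives, among them leaving out PC replicate 3 (-0.93) or naive replicate 3 (-0.97) and both other scalings of the same table (-0.62 and -0.64). E130012A19Rik, which encodes the PRC2-associated protein Epop, was at 2.31 to 3.91 TPM in naive cells, 1.70 to 3.10 in NP+ B cells and 0.195 to 0.957 in PCs. It passed the filter only through the B cell groups where it was high, so no test of it is given, although the counts above include it.

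Among 22 subunits of PRC1, the complex that ubiquitinates histone H2A and reads the PRC2 mark, none was called higher in any comparison, while Yaf2, a subunit of variant PRC1, passed in NP+ B cells with median-of-ratios scaling (1.09) and quantile normalization (1.06). Called lower were 1 in NP+ B cells and 10 in PCs against naive cells, and 9 in PCs against NP+ B cells. With either median-of-ratios scaling or quantile normalization 5 and 4 were called lower in PCs, and with Ig genes kept 21 and 20. Their medians were -0.11, -0.83 and -0.72. Cbx7, which binds the PRC2 mark, was at 36.1 to 55.1 TPM in naive cells, 18.2 to 20.1 in NP+ B cells and 4.33 to 6.09 in PCs, and fell in both against naive cells (log2 change of -1.31 and -3.16). Phc2, a scaffold of PRC1, was at 13.6 to 15.3 TPM in naive cells and 8.47 to 18.7 in NP+ B cells, and at 1.102 to 1.96 in PCs. Its log2 change in PCs was -2.91 against naive cells and -2.75 against NP+ B cells. The related Phc1 was at 4.12 to 5.92, 2.64 to 4.16 and 0.385 to 2.15 TPM. Cbx2, which also binds the mark, was at 1.5003 to 1.59, 2.31 to 5.10 and 0.389 to 0.961 TPM, and like Phc1 passed the filter only through the B cell groups, so no test of either is given, although the counts above include both. At an unadjusted p under 0.05 in limma, 5, 0 and 0 of the 22 were higher and 7, 14 and 17 lower in the 3 comparisons, where 22.0%, 19.3% and 17.5% of all tested genes were higher and 29.2%, 45.2% and 41.4% lower.

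Of 6 genes whose products remove Polycomb marks, 2 were called, both in PCs against naive cells, where 37.8% of all tested genes were called. Median-of-ratios scaling and quantile normalization called Usp16, an H2A deubiquitinase, higher in PCs against naive cells (1.48 and 1.03) and against NP+ B cells (1.28 and 1.08). With Ig genes kept none was called higher, and 4 and 2 were called lower in PCs. Asxl1, a cofactor of the H2A deubiquitinase Bap1, rose by 1.13 on the log2 scale, from 6.13 to 7.18 TPM in naive cells to 13.1 to 17.0 in PCs, a difference of 0.0048 with Ig genes kept. Kdm6b, a histone demethylase that removes the PRC2 mark, fell by 1.23, from 4.39 to 4.73 TPM to 1.29 to 2.21, and was under the fold limit with median-of-ratios scaling (-0.73) and quantile normalization (-0.79).

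Among partners of DNA methylation, Hells, Cdca7 and Cdca7l rose with Uhrf1 in NP+ B cells. Of 9 listed genes 6 were tested; 3 were called higher in NP+ B cells, 2 lower in PCs against naive cells and 3 lower in PCs against NP+ B cells. Median-of-ratios scaling and quantile normalization also called Hells higher in PCs against naive cells (1.48 and 1.54), and with Ig genes kept 5 and 6 genes were called lower in PCs. Medians of the list were 0.87, -0.74 and -1.44. Hells, a chromatin remodeler required for DNA methylation, was at 5.90 to 10.8 TPM in naive cells, 44.7 to 81.0 in NP+ B cells and 14.4 to 19.1 in PCs. Its log2 change was 2.91 from naive to NP+ B cells and -1.92 from there to PCs. Cdca7, which recruits Hells, was at 24.4 to 30.3 TPM, 60.3 to 94.7 and 5.14 to 7.13, and its relative Cdca7l at 7.67 to 8.44 TPM, 24.8 to 34.5 and 1.18 to 2.20. Both rose in NP+ B cells (1.49 and 1.76), and in PCs both fell (log2 change of -3.56 and -3.77 against NP+ B cells, -2.07 and -2.005 against naive cells). In naive cells and PCs, the order of Hells and Cdca7 was opposite.

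Of 7 genes of DNA demethylation 6 were tested, and none was called higher in limma, though 3, 1 and 0 were higher at an unadjusted p under 0.05. Called lower were 2, 3 and 3 genes in the 3 comparisons. Median-of-ratios scaling and quantile normalization each called 1 higher and 2 lower in NP+ B cells and in PCs against naive cells, and with Ig genes kept 5 and 5 were called lower in PCs. The medians were 0.34, -0.96 and -0.96. Cxxc5, a zinc finger protein that binds CpG, was at 39.5 to 43.6 TPM in naive cells, 6.76 to 17.2 in NP+ B cells and 2.41 to 3.10 in PCs, and fell against naive cells in both (log2 change of -1.82 and -3.73). Apex1, a base excision repair endonuclease, was at 70.3 to 85.7 TPM, 110.0 to 163.4 and 11.2 to 18.1, and fell by 3.03 from NP+ B cells to PCs. Tet1, the third oxidase, was at 2.08 to 3.16 TPM in naive cells, 4.15 to 6.99 in NP+ B cells and 1.06 to 1.94 in PCs, and fell by 1.66 in the last step. Smug1, a DNA glycosylase, fell in NP+ B cells (-1.21) and PCs (-1.23) against naive cells. The latter call was lost with median-of-ratios scaling (-0.74), with quantile normalization (-0.73) and without PC replicate 1 (-0.97). Each of the 3 Tet genes thus had its own pattern over the groups.

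Of 7 genes listed as readers of methylated DNA or their relatives, 1 was called higher and 1 lower in NP+ B cells, 1 and 1 in PCs against naive cells and 1 and 3 in PCs against NP+ B cells, with medians of 0.17, -0.70 and -0.92. Median-of-ratios scaling and quantile normalization each gave 1 and 0, 2 and 1, and 2 and 1, and with Ig genes kept PCs had 0 and 4 in both comparisons. Mbd2, a methyl-CpG repressor, was at 13.5 to 18.5 TPM in naive cells, 33.1 to 80.9 in NP+ B cells and 9.31 to 12.9 in PCs, with log2 changes of 1.62 and then -2.23. Zbtb4, a zinc finger reader, was the gene called lower in NP+ B cells (-1.06), a call lost with median-of-ratios scaling (-0.96), quantile normalization (-0.85) and an offset of 1 (-0.94), and without naive replicate 3 (-0.98) or NP+ B cell replicate 1 (-0.80). In PCs Zbtb4 was at 0.710 to 1.09 TPM, against 4.99 to 6.66 in naive cells and 1.65 to 3.27 in NP+ B cells, and it passed the filter only through these, so no test of it in PCs is given, although the counts above include it. Zbtb38, of the same family, rose by 1.48 in PCs, from 13.5 to 18.0 TPM in naive cells to 38.4 to 51.9, and by 0.29 with Ig genes kept, where it was not called. Mbd1 rose by 1.15 from NP+ B cells to PCs, 0.95 without PC replicate 2, and Mbd3 fell by 1.32 there, -0.997 without PC replicate 3, -0.94 with median-of-ratios scaling and -0.96 with quantile normalization. Of 7 genes of the methyl donor cycle none was called in NP+ B cells in limma, where 2 were higher and 1 lower at an unadjusted p under 0.05, and 2 and 1 were called lower in PCs against naive and NP+ B cells. Median-of-ratios scaling and quantile normalization each called 1 gene higher in NP+ B cells. In PCs against naive cells the former called 1 higher and none lower and the latter 1 lower, and with Ig genes kept 5 and 7 were called lower in both PC comparisons. Mat2a, which makes S-adenosylmethionine, was at 118.3 to 132.4 TPM in naive cells, 126.9 to 142.3 in NP+ B cells and 45.6 to 53.8 in PCs, and fell against both B cell groups (log2 change of -1.28 and -1.42). The former was -0.79, under the limit, with median-of-ratios scaling. Mtr, methionine synthase, fell by 1.12 in PCs against naive cells, -0.91 without PC replicate 3, -0.62 with median-of-ratios scaling and -0.57 with quantile normalization (limma adjusted p = 0.0562), and was called in none of these.

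**Figure D4:**
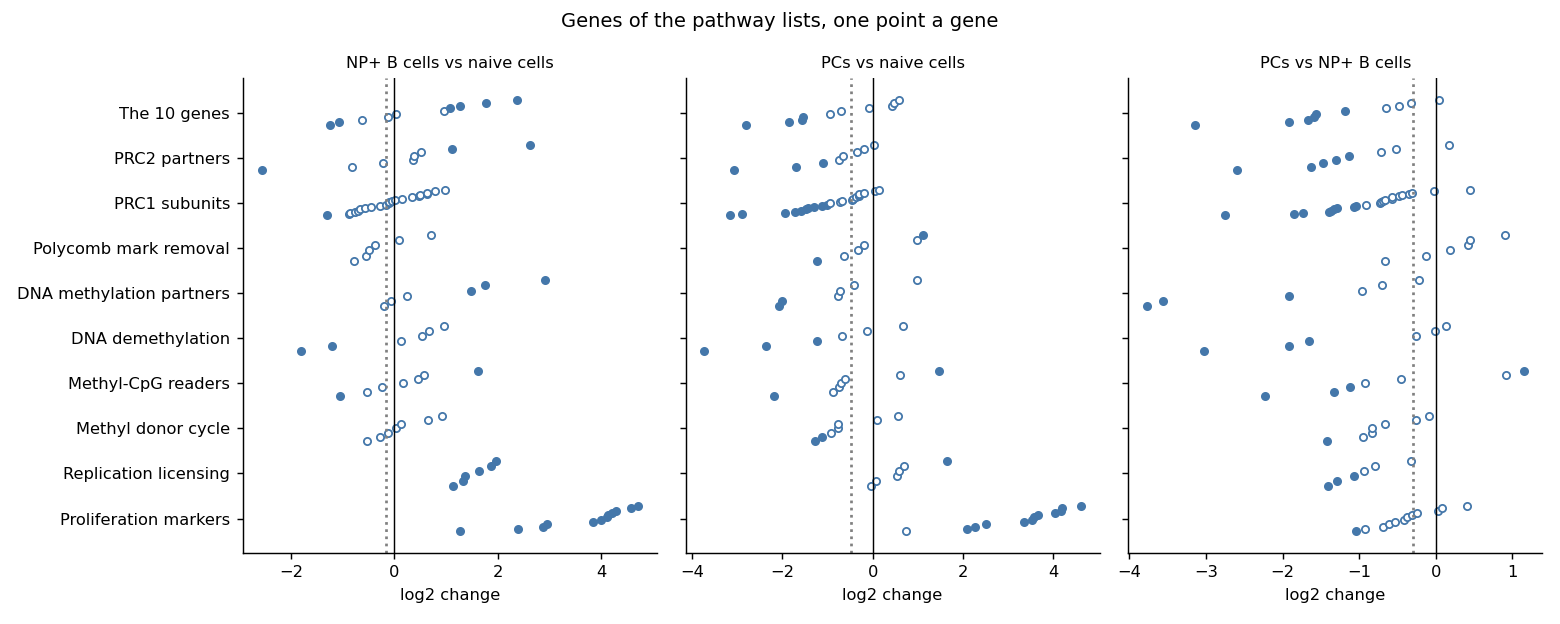
Log2 change of every tested gene of the pathway lists in the 3 comparisons, 1 point a gene, filled where called. The dotted line is the median of all tested genes. Proliferation markers and licensing genes lie to the right in the left panel, where all 18 are filled, and in the right panel the filled points of all lists other than the readers lie left of 0.

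Across the 9 libraries the 10 genes fell into patterns that can be described by Pearson's r of log2 (TPM + 0.5), a description over 3 groups of 3 libraries that share their group differences. Ezh2 and Uhrf1 had the highest value of any pair, 0.982, followed by Eed and Dnmt1 with 0.934, Ezh1 and Tet3 with 0.884 and Tet3 and Dnmt3b with 0.865. Ezh2 and Ezh1 had -0.46. Tet2 reached 0.50 at most, with Ezh1.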

How the data were processed

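RNA-seq of 9 libraries (3 groups of 3) was analysed. The labels name the SMARTer v4 kit with Nextera XT libraries, and the submitters' processing notes name kallisto, limma and mm10; the transcript annotation was not given in the sources used here. The deposited TPM values were made by the authors from kallisto estimates per gene symbol, with and without Ig genes, and the deposited log2 values by voom from the same estimates. Estimated reads were recovered from the deposited log2 values without Ig genes, by the value shared by genes at 0, which stands for 0.5 counts. These counts carry no molecular identifiers.

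TPM of the table without Ig genes was passed to voom (offset 0.5, scaled to the column sum of the whole table) and fitted with limma 3.58.1 in R 4.3.3 with 3 group means over 9 libraries and no block. The filter kept genes that reached a TPM of 1 in 3 or more libraries. A log2 change is on the log2 (TPM + 0.5) scale, and understates changes of low genes. The procedure was tested on simulated data. Shares and differences from Mcm2 to Mcm7 were compared by two-sided exact permutation tests. 1 gene of the list of methylated DNA readers is not reported here. The members and lists were chosen with earlier results of these data known. Named were the 10 genes, up to 3 genes with the largest rise and fall among the called genes of each list and comparison, the 5 genes most like Ezh2, Uhrf1, Ezh1 and Tet2 (mean TPM of at least 5), and sort and division markers. Outside this rule, Yaf2 and Usp16 were named because other scalings called them, and E2f2 to complete a count. Single markers of other cell types and single germline, Hox and CDK inhibitor genes were also named. Alternatives were other scalings, Ig genes kept, no filter or a mean TPM of at least 5, offsets of 0.1 and 1 without weights, the deposited log2 values, only the 6 libraries compared, a replicate block, leaving out each library, and, added after seeing the data, estimated counts in voom.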

Additional observations from a re-analysis of the deposited data

How the results depend on the processing

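Of the 30 values (10 genes in 3 comparisons), 13 kept their direction and their side of the thresholds under every alternative run. With a mean TPM of at least 5, 1590 genes in place of 2388 were called between the B cell groups, of fewer genes tested. With Ig genes kept, 8494 of 12324 tested genes were called between PCs and naive cells and 7775 between PCs and NP+ B cells. Beside these, 7 and 9 of the 10 genes were called in the same comparisons. Quantile normalization also called 7 of the 10 in the former, beside 4110 of 12892 tested genes. Keeping the Ig genes turned Ezh2 (-0.59), Suz12 (-0.65) and Uhrf1 (-0.66) against naive cells, and Tet2 (-0.90) and Mbd1 (-0.0021) against NP+ B cells. It brought Dnmt1 (-1.82), Dnmt3b (-1.70) and Tet2 (-1.03) past the limit in PCs against naive cells, and Ezh1 (-1.59), Suz12 (-1.72) and Dnmt3b (-1.08) in PCs against NP+ B cells.

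Tet2 in PCs against naive cells was 0.41 with median-of-ratios scaling, 0.48 with quantile normalization, 0.012 with the deposited log2 values and 0.013 with estimated counts; between the B cell groups it was 0.012 with quantile normalization. Dnmt3b between PCs and NP+ B cells was 0.063 with median-of-ratios scaling and 0.0059 with quantile normalization. With an offset of 1, Ezh2 relative to Mcm2 to Mcm7 was -0.00529 in PCs minus naive cells. The cause of these changes was not tested.

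Leaving out 1 library at a time gave 2039 to 2600, 4588 to 4883 and 3926 to 4347 called genes in the 3 comparisons, and 4 to 7, 4 to 5 and 6 of the 10 genes. It moved Dnmt3a (-0.15 to 0.31) and Tet2 (-0.20 to 0.0012) between the B cell groups, Tet2 between PCs and NP+ B cells (-0.082 to 0.12), and Ezh2 relative to Mcm2 to Mcm7 between PCs and naive cells (-0.086 to 0.13) across 0.

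Same-numbered libraries did not deviate together (r between -0.075 and 0.068 in 9 pairs), and 7 of 18 best matches had the same number, so the numbers were not taken to pair samples. With the replicate number as a block, 2453, 4898 and 4238 genes and 6, 4 and 6 of the 10 genes were called. Each value of the 10 genes rests on at least 115.9 estimated reads, and precision rests on 3 libraries a group. The part of the unequal number of reads outside Ig genes in the groups was not tested.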

Other observations

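The E2F family, whose words were searched above, was described by its own transcripts. Of 11 E2F and Rb family genes 3 were called higher in NP+ B cells than in naive cells, where 8.13% of all tested genes were. In PCs against naive cells 1 was called higher (E2f8) and 4 lower (E2f5, E2f6, Rbl2 and E2f2), which became 4 and 1 with median-of-ratios scaling or quantile normalization and 0 and 6 with Ig genes kept. E2f8, a repressor of the family, rose by 2.43, from 1.65 to 1.99 TPM to 10.7 to 13.7. E2f1, an activator, rose by 1.94 (limma adjusted p = 0.0206) with a wide spread of 4.53 to 24.3 TPM, and was no longer called without naive replicate 2 (1.91) or 3 (1.81). Rbl1 rose by 1.12. Between NP+ B cells and PCs, E2f5 (log2 change of -2.46), E2f6 (-1.74) and E2f4 (-1.73) fell, and none of the 11 was called higher, nor was any higher at an unadjusted p under 0.05 in limma. With Ig genes kept 10 of the 11 were called lower there.

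Germline and Hox genes, known targets of silencing by DNA methylation and Polycomb, were near or under the filter. None of 12 germline genes silenced by DNA methylation and none of 10 Hox genes reached it, the highest single values being 1.42 TPM for Asz1 in naive replicate 1 and 1.10 TPM for Hoxb4 in naive replicate 3. At the CDK inhibitor loci, Cdkn2a was at 0 to 1.70 TPM and was not tested. Cdkn2b was at 0 to 0.215 TPM in naive cells, 0.509 to 2.39 in NP+ B cells and 0.864 to 1.90 in PCs. It passed the filter only through libraries of the groups where it was high, so no test of it is given. Cdkn2c, at 10.8 to 38.0 TPM over all libraries, rose by 1.36 in PCs against naive cells (0.19 and not called with Ig genes kept). Cdkn2d, at 26.0 to 110.2 TPM, fell by 1.86 there.

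The genes most like Ezh2 over the 9 libraries, among 8915 genes with a mean TPM of at least 5, were Metap2, Arhgap11a, Rrm1, Capn2 and Rab8b (Pearson's r from 0.984 to 0.987). For Uhrf1 they were H2afx, Sumo3, Ckap5, Mrps7 and Dera (0.985 to 0.988), and for Ezh1 Nr4a1, Rundc1, Irak2, Herc4 and Dgka (0.991 to 0.994). Nr4a1, an immediate early nuclear receptor, averaged 26.4 TPM in naive cells, 2.68 in NP+ B cells and 0.324 in PCs. For Tet2 the closest were Zdhhc24, Armc6, Fam185a, Zfyve1 and Nicn1 (0.889 to 0.922).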
